A study of Mus musculus with 24 samples.

Results

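The 34 genes described here belong to the NF-kB pathway and to the inflammatory programme it controls. They are 5 subunits, 5 members of the IkB family, 7 regulators of signalling, 3 survival genes, 5 cytokines, 4 chemokines, 3 surface or enzyme targets and 2 inflammasome genes, taken by symbol from a table of 24046 genes. All 34 had a row in the table. Of these, 31 held enough reads to be tested among 14099 genes, and Il6, Il10 and Ptgs2 did not.

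NF-kB is a family of transcription factors that sits in the cytoplasm bound to IkB inhibitor proteins. Signals from Toll-like, interleukin-1 and tumour necrosis factor receptors activate the IkB kinases, which mark the inhibitor for degradation and free the factor to enter the nucleus. Its targets include cytokines, chemokines and survival genes, and also its own inhibitors and several of its own subunits. In myeloid leukaemia it is known for promoting survival and cytokine production.

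RNA was sequenced from bone marrow leukaemia cells of moribund secondary mouse recipients that carried the MLL-AF9 fusion oncogene. Arid1b and Arid2, the genes with floxed alleles, code for parts of SWI/SNF chromatin remodellers. There were 4 sets, each with 3 floxed and 3 control libraries, and the controls carried the same Cre without floxed alleles. The VavCre Arid1b set compared Arid1b fl/fl VavCre+ with Arid1b +/+ VavCre+ cells, and the VavCre Arid2 set was built in the same way for Arid2, with VavCre being active throughout the blood lineage. The floxed and control MxCre recipients all received pIpC, which induces MxCre and is itself an inflammatory stimulus, as 3 injections of 12.5 µg per g, the first given 21 days after the transplant. In both MxCre sets the titles and the cell type descriptions name different genes, so the sets are called by their titles, A2 and A1b, and which gene was floxed is not assigned. The labels do not say whether libraries of a group came from separate leukaemias, and the p-values therefore reflect only how far these particular libraries spread. No ages were given.

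Library totals ran from 12069153 to 38315410 counts. Levels are given as CPM, counts scaled to library size, and the log2 fold changes and adjusted p-values come from an edgeR quasi-likelihood test across all tested genes. The 8 genes fixed as markers of this leukaemia, among them Hoxa9 and Meis1, were read in every group and summed to between 1636 and 3213 CPM. The levels were uneven. In VavCre Arid2 floxed cells, Ptprc, Itgam, Mef2c and Spi1 of the list averaged 456, 457, 430 and 325 CPM. In the same cells Hoxa9 averaged 64.1 CPM, with a lowest library of 20.1 CPM, and Meis1 99.9 CPM. Neither targeted gene passed the test in any set. In the VavCre Arid1b set, Arid1b had 140, 184 and 169 CPM in floxed libraries, against 220, 186 and 367 CPM in controls. In the VavCre Arid2 set, Arid2 had 290, 281 and 197 CPM in floxed libraries, against 218, 443 and 237 CPM in controls. In the MxCre set titled A2, Arid1b had 183, 181 and 169 CPM in floxed libraries, against 211, 141 and 442 CPM in controls, and Arid2 had 245, 348 and 274 CPM, against 300, 189 and 547 CPM. In the MxCre set titled A1b, Arid1b had 262, 55.7 and 253 CPM in floxed libraries, against 155, 193 and 175 CPM in controls, and Arid2 had 404, 121 and 402 CPM, against 202, 287 and 198 CPM. Reads from exons outside a deleted part would still be counted, so these levels do not check the deletion. For an alternative chosen with earlier results known, 3 libraries were set aside, namely control library 3 in VavCre Arid1b, floxed library 3 in MxCre titled A2 and floxed library 2 in MxCre titled A1b. By the chi-square per gene between libraries of a group, the first differed from the others by 135 and 135.8, where those differed by 27.29, and the second by 372.6 and 424.3, where those differed by 44.82. The third was no plainer an exception (209.7 and 123.5, against 125.3), and control library 2 in MxCre titled A1b differed from its group by 98.49 and 113, where the others differed by 14.44.

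Promoter sequence was available for 26 of the 34 genes, from RefSeq on GRCm38.p6, as 300 bases running from 250 before to 50 after each start site. The general NF-kB motif, GGG and CC separated by any 5 bases, searched on both strands with overlaps allowed, was present for 20 of the 26 genes (76.92%) and for 53.52% of all 27025 genes with a promoter. The narrower form, GGGA, any base and TTTCC, every match to which also matches the general motif, was present for 4 of the 26 genes (15.38%), against 0.4662% of all genes. These 4 were Cxcl2, Il6, Nfkbia and Nfkb2. The last had GGGACTTTCC at 1 site that lies in 2 of its overlapping promoters. That site starts at base 11 after 1 start site and 225 bases before the other. The 250 bases before the start site follow for 3 of the 4, which were read at very different levels, and for Bcl3 and Tnip3, which had the lowest p-values in the set with most calls. Capitals mark every match to the general motif on either strand.
Cxcl2, chr5:90903649-90903898, plus strand: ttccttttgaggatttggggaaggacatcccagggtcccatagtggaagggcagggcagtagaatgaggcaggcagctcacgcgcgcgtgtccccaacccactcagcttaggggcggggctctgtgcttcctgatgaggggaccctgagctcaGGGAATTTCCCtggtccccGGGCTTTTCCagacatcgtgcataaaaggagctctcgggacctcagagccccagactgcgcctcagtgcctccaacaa
Il6, chr5:30012864-30013113, plus strand: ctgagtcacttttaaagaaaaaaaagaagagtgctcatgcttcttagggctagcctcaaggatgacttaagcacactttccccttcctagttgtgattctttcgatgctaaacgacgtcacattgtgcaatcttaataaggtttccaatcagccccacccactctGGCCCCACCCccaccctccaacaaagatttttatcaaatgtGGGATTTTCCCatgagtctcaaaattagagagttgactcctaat
Nfkbia, chr12:55492648-55492897, minus strand: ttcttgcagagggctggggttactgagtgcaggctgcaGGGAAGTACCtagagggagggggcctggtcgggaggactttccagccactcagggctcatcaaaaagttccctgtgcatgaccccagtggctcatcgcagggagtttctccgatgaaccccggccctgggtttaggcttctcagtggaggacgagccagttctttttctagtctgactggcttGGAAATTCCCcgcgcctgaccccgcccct
Bcl3, chr7:19822756-19823005, minus strand: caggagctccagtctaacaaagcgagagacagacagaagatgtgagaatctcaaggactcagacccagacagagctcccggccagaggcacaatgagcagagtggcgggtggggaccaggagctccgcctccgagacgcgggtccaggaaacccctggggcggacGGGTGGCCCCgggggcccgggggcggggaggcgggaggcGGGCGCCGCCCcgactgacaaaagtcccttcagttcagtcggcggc
Tnip3, chr6:65590148-65590397, plus strand: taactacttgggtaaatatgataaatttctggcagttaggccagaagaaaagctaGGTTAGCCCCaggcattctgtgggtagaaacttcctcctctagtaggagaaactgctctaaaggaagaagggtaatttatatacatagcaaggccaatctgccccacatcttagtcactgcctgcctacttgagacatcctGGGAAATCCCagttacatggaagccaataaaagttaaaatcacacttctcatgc
A match is a description of these letters only. The Cxcl2 promoter holds GGGAATTTCC starting 97 bases before the start site, and the gene was read at 0 CPM in 8 of the 24 libraries and at 45.0 CPM in 1. Il6 holds GGGATTTTCC starting 44 bases before the start site and had 10 reads over all 24 libraries. Nfkbia holds GGGAATTTCC on the opposite strand 29 bases before the start site and ranged between 47.2 and 174.9 CPM.

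Per kilobase of exon, on the scale of median CPM over the 24 libraries, the highest level was that of Nfkbia, at 51.5 CPM per kb. Exon length was that of all annotated exons of a gene merged, 1610 bases for Nfkbia and 12061 for Nfkb1, so the order depends on the annotation. Before the division by length, median CPM was 82.8 for Nfkbia and 354 for Nfkb1. Nfkbia encodes the main inhibitor of NF-kB and lies at chr12:55489410-55492647 on GRCm38. Rela, the activating subunit p65, followed at 36.5 CPM per kb, then Tnip1, a partner of the inhibitor A20, at 31.2, Nfkb1, the precursor of p50, at 29.4, and the chemokine gene Ccl3 at 23.1. Among the other subunits Nfkb2 had 9.16, Rel 3.14 and Relb 1.83 CPM per kb. Of the inducible cytokine and chemokine genes other than Ccl3, Ccl4 had 4.41 and Tnf 3.299 CPM per kb, both above Rel. Lower levels were those of Il1b at 0.536, Ccl2 at 0.101 and Cxcl2 at 0.0426 CPM per kb.

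The genes differed in how far they varied between libraries of the same group. The pooled within-group SD of log2(CPM + 0.5) was under 0.3 for 6 of the 31 tested genes, namely Rela (0.136), Tnip1 (0.148), Nfkbib (0.187), Sod2 (0.240), Cflar (0.269) and Icam1 (0.284). It was over 1 for 5 genes, namely Nlrp3 (1.38), Nfkbiz (1.23), Cxcl2 (1.22), Il1b (1.02) and Ccl3 (1.01). Nlrp3, the sensor of the inflammasome, ranged between 1.71 and 101 CPM over the 24 libraries. Rela ranged between 91.2 and 148 CPM.

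**Figure D1:**
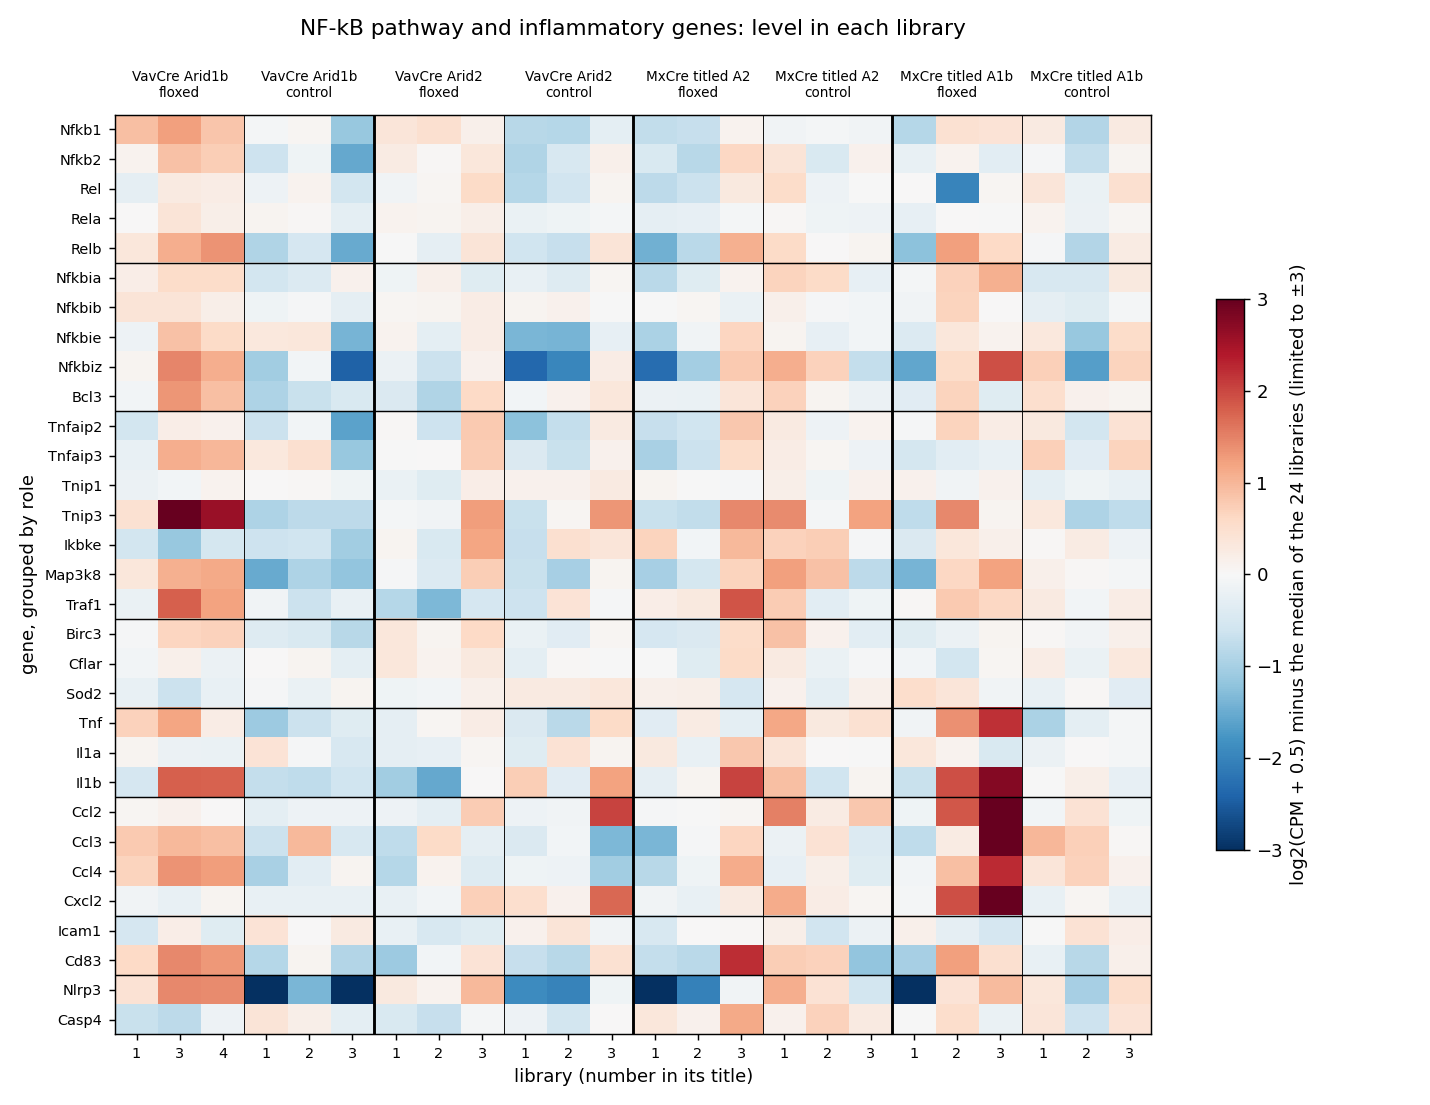
Level of the 31 tested genes in each of the 24 libraries, as log2(CPM + 0.5) minus the gene's median over all libraries (red higher, blue lower, limited to 3 in either direction). Genes are grouped by role down the page and libraries by set across it, floxed left of control, and the chemokine rows are darkest red in floxed library 3 of the MxCre set titled A1b.

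Extreme levels gathered in a few libraries. Floxed library 3 of the MxCre set titled A1b held the highest level of the 24 for 8 of the 31 tested genes. Control library 3 of the VavCre Arid1b set held the lowest level for 10 of the 31, while floxed library 3 of the same set held the highest for 8.

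In the VavCre Arid1b set, 6 of the 31 tested genes (19.4%) rose in floxed cells and 0 fell at an adjusted p under 0.05, and the others did not pass. Over all genes tested, 3.52% rose and 3.05% fell. The fold change was above 0 for 26 of the 31 genes. Their median log2 fold change was 1.03, against -0.06 over all genes, and 0.89 for 30 genes without Cxcl2, which had 3 floxed reads and 0 control reads. Without the 3 libraries set aside, 3 of the 31 genes passed, and how many of all genes passed in that run is not given here. The 6 genes encode a subunit, an IkB family member, a kinase, an A20-binding protein, an inhibitor of apoptosis and an inflammasome sensor. In bulk RNA, a change in the share of a cell type and a change in RNA per cell cannot be told apart.

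Among the subunits, Nfkb1 had 663, 830 and 633 CPM in floxed libraries, against 341, 367 and 160 CPM in controls. Every floxed library lay above every control. Nfkb1 rose by a log2 fold change of 1.29 ± 0.36 (SE, n = 3 each, adjusted p = 0.0401, edgeR). Nfkb2, the precursor of p52 in the non-canonical pathway, averaged 64.4 ± 16.8 CPM in floxed and 26.4 ± 12.1 CPM in control cells (SD, n = 3 each) with an adjusted p of 0.0527 (edgeR). Relb, the partner of p52, averaged 14.6 ± 4.96 CPM in floxed and 3.55 ± 1.37 CPM in control cells with an adjusted p of 0.0640 (edgeR). Their groups did not overlap either, but neither passed the threshold. Rela had a log2 fold change of 0.26 (95% interval -0.00 to 0.51) and Rel, which encodes c-Rel, one of 0.28 (-0.61 to 1.16).

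In the IkB family, Bcl3 had 18.8, 50.8 and 37.4 CPM in floxed libraries, against 10.3, 12.3 and 14.4 CPM in controls. Bcl3 encodes a nuclear IkB protein that acts as a cofactor of p50 and p52 dimers. All floxed libraries were above all controls, and the gene rose by a log2 fold change of 1.53 ± 0.40 (SE, adjusted p = 0.0294, edgeR). The other 4 family members had log2 fold changes of 0.47 to 1.95 and did not pass. Nfkbia averaged 113 ± 15.5 CPM in floxed and 69.9 ± 18.7 CPM in control cells (SD, n = 3 each, adjusted p = 0.183, edgeR), and Nfkbiz, the nuclear cofactor IkB-zeta, averaged 28.7 ± 12.6 and 7.43 ± 5.64 CPM (adjusted p = 0.231).

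Of the 7 regulators of signalling, 2 rose. Map3k8, the kinase TPL2, which lies at chr18:4331327-4353015 and links the pathway to ERK, had 9.59, 16.2 and 17.1 CPM in floxed libraries, against 2.32, 3.71 and 3.04 CPM in controls. Its log2 fold change was 2.24 ± 0.63 (SE, adjusted p = 0.0405, edgeR). Tnip3, which encodes an A20-binding protein, had 0.803, 7.75 and 5.22 CPM in floxed libraries, against 0, 0.0571 and 0.0507 CPM in controls. The controls held 2 reads and the floxed libraries 279, a ratio of 129 after scaling with a 95% counting interval of 35.3 to 1069 (adjusted p = 0.0345, edgeR). Tnip3 and Bcl3 were both lowest, among the floxed libraries, in library 1. Traf1, an adaptor of the tumour necrosis factor receptors, had 1.04, 5.58 and 3.54 CPM in floxed libraries, against 1.13, 0.629 and 1.01 CPM in controls, so the groups overlapped (adjusted p = 0.0942, edgeR). Tnip1 had a log2 fold change of -0.02 (-0.30 to 0.26), Ikbke, an IkB kinase relative, one of 0.03 (-0.76 to 0.83), and Tnfaip3, which encodes A20 itself, one of 0.70 (-0.24 to 1.64).

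Birc3, which encodes the inhibitor of apoptosis cIAP2, had 53.4, 85.0 and 88.8 CPM in floxed libraries, against 41.2, 39.5 and 30.6 CPM in controls. It rose by a log2 fold change of 1.03 ± 0.30 (SE, adjusted p = 0.0442, edgeR). The other survival genes did not pass, with log2 fold changes of 0.03 (-0.42 to 0.48) for Cflar, which encodes the caspase-8 inhibitor c-FLIP, and -0.31 (-0.71 to 0.10) for Sod2, the mitochondrial superoxide dismutase. Nlrp3 had 50.1, 101 and 99.8 CPM in floxed libraries, against 4.09, 14.1 and 2.13 CPM in controls. Every floxed library was above every control, and the gene rose by a log2 fold change of 3.63 ± 1.08 (SE, adjusted p = 0.0494, edgeR). Casp4, the caspase of the non-canonical inflammasome (Casp11 in older mouse usage), had a log2 fold change of -0.64 (-1.32 to 0.05).

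**Figure D2:**
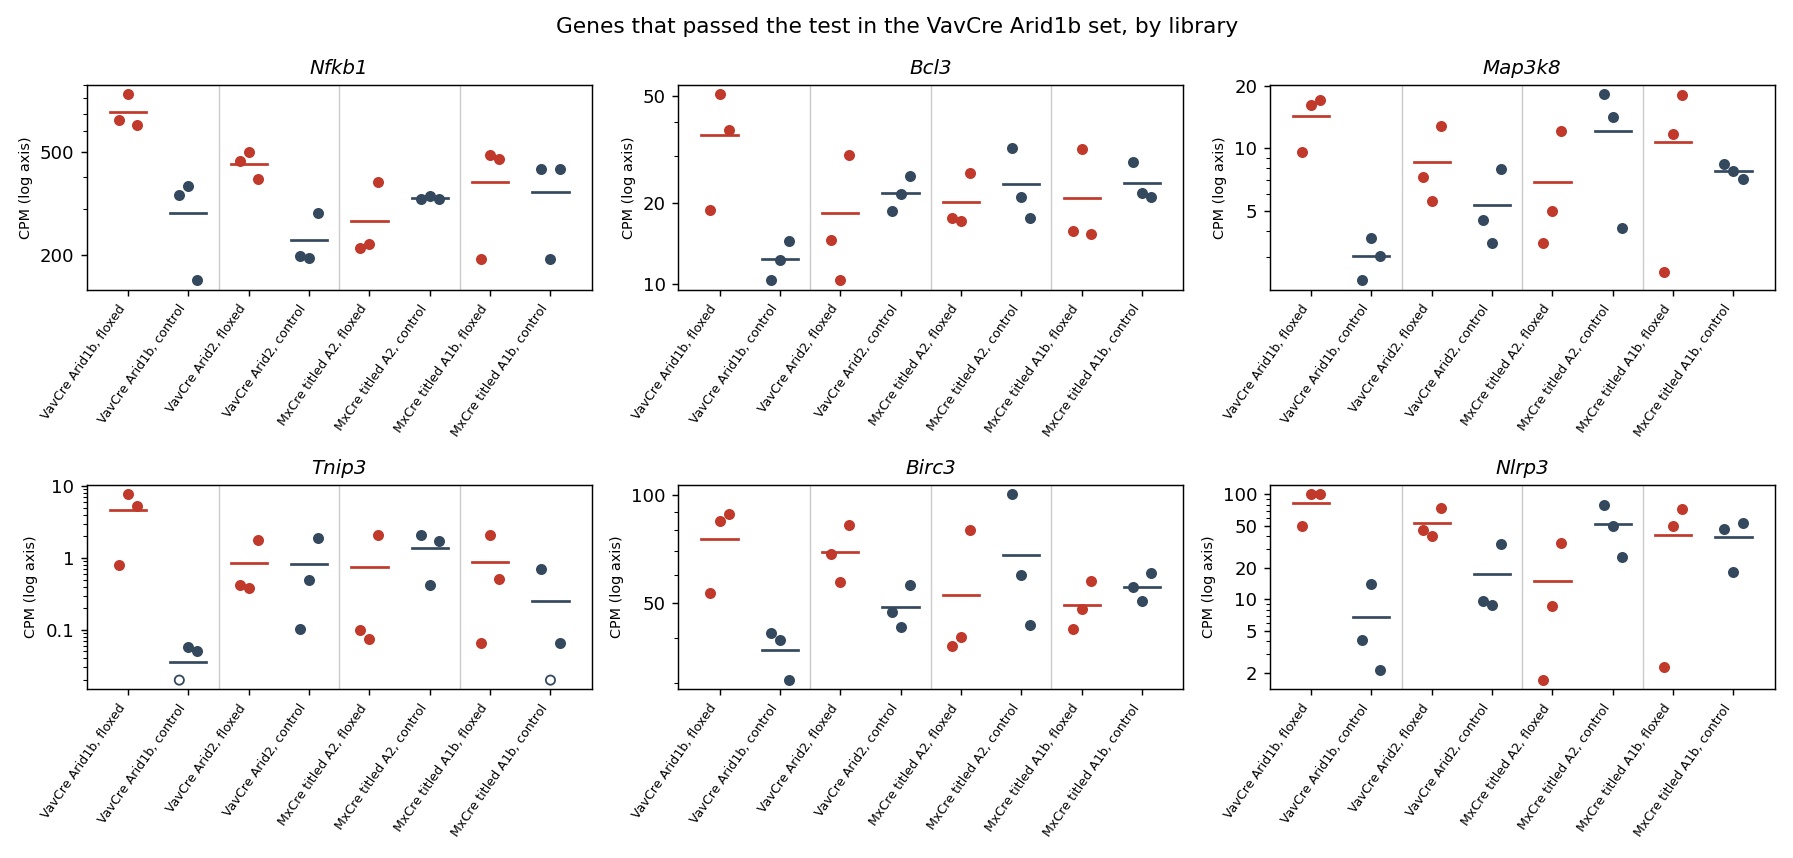
CPM by library (log axis) of the 6 genes that passed the test in the VavCre Arid1b set, in all 8 groups, with floxed groups in red left of their controls in dark blue. Lines are means over 3 libraries and open circles at the bottom are libraries with 0 reads; in the VavCre Arid1b set all 3 floxed libraries lie above all 3 controls in each panel.

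None of the secreted products passed in this set. Tnf had 8.98, 12.9 and 6.43 CPM in floxed libraries, against 2.26, 3.26 and 4.11 CPM in controls, and an adjusted p of 0.0673 (edgeR). Il1b had 0.567, 4.78 and 4.68 CPM in floxed libraries, against 0.431, 0.39997 and 0.507 CPM in controls (adjusted p = 0.129, edgeR). Ccl4 averaged 6.91 ± 1.75 CPM in floxed and 2.19 ± 0.929 CPM in control cells (SD, n = 3 each, adjusted p = 0.101, edgeR). For Tnf, Il1b and Ccl4 the groups did not overlap. Ccl3 had 31.0, 35.3 and 33.4 CPM in floxed libraries, against 11.04, 35.3 and 12.5 CPM in controls, and thus did overlap. Cd83, a marker of mature dendritic cells, averaged 2.61 ± 0.884 CPM in floxed and 0.498 ± 0.410 CPM in control cells (SD, n = 3 each, adjusted p = 0.232, edgeR), and Icam1, an adhesion molecule, 30.3 ± 8.30 and 41.0 ± 5.78 CPM (adjusted p = 0.263). Il1a (0.690 ± 0.139 CPM in floxed and 0.778 ± 0.391 CPM in control cells), Tnfaip2, Nfkbie and Nfkbib also did not pass, the last 3 having log2 fold changes of 0.62, 0.57 and 0.47. Over all 31 genes, the groups did not overlap for 16 that were higher in floxed cells and 1, Sod2, that was lower. Over all genes tested, 16.3% did not overlap and were higher and 16.1% were lower.

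Other genes of the pathway, on lists that share no gene with the 34, showed a mixture. Of 22 receptors and adaptors, 3 rose: Cd40 (13.1 ± 10.5 CPM in floxed and 0.0920 ± 0.0688 CPM in control cells), Il1r1, the interleukin-1 receptor (11.01 ± 8.87 and 0.852 ± 0.219 CPM), and Malt1, a paracaspase (140 ± 21.2 and 84.6 ± 10.9 CPM). Traf3, a brake on the non-canonical pathway, fell (66.5 ± 8.66 and 124 ± 36.7 CPM). Of 15 kinases and ubiquitin ligases, 1 rose, Ikbkb, a catalytic IKK subunit (log2 fold change 0.84 ± 0.22 SE, adjusted p = 0.0292, edgeR). Of 12 inhibitors, Nfkbid and Tnip2 rose, by log2 fold changes of 1.07 and 0.75. Of 38 further target genes 29 were tested, and Ccl9, a chemokine, rose to 351 ± 125 CPM in floxed cells, against 90.1 ± 35.4 CPM in control cells, while Gadd45b, a stress-response gene, fell to 8.05 ± 2.41 CPM in floxed cells, against 31.9 ± 0.992 CPM in control cells. None of 10 further inflammasome genes passed. Of 19 immediate-early genes, Klf2, Klf6 and Atf3 rose, by log2 fold changes of 3.34, 1.77 and 3.44, and all 19 had a fold change above 0.

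Genes listed as cell type markers moved with this difference. Of 12 dendritic cell markers, 9 rose, and their summed level was 1236 to 3178 CPM in floxed libraries, against 76.0 to 280 CPM in controls. Of 13 monocyte and macrophage markers, 4 rose, with summed levels of 3348 to 5325 CPM in floxed libraries, against 720 to 1580 CPM in controls. None of the markers on either list was at 0 in either group. No granulocyte marker of 13 passed, nor any of 8 erythroid, 7 B, 9 T and NK or 8 leukaemia markers, and 1 of 7 stromal and endothelial markers rose. Whether these markers were read from other cells or from the leukaemia cells was not tested, nor was their part in the result. The Y-linked gene Kdm5d was above 10 CPM in 0 of 3 floxed and 3 of 3 control libraries of this set, so Y status and floxed state cannot be told apart in it. With a term for Y-positive libraries, estimated from groups that hold both kinds, 0 of the 6 genes passed, and 101 of all genes did. The calls also rest on single libraries. No gene of the 31 passed without control 1, control 3, floxed 3 or floxed 4. Without control 2, Nfkb1, Nfkb2 and Nlrp3 passed, and without floxed 1, Bcl3, Birc3, Map3k8, Nfkb2, Tnip3 and Traf1 passed. How many of all genes passed in these runs is not given here.

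In the VavCre Arid2 set, none of the 31 genes passed, and 1.31% of all genes did. At an unadjusted p under 0.05 there were 4 of the 31, Nfkb1, Icam1, Traf1 and Tnip1, and 2753 of all 14099 tested genes. DESeq2 called 0 of the 31. Fold changes of the 31 genes split 21 above to 10 below 0, with a median log2 fold change of 0.16, against 0.00 over all genes. Nfkb1 had 458, 497 and 394 CPM in floxed libraries, against 199, 196 and 290 CPM in controls. Every floxed library was again above every control, with a log2 fold change of 0.98 ± 0.36 (SE, adjusted p = 0.148, edgeR), and the gene passed when the fit used this set's 6 libraries alone. Icam1 had 29.5, 24.6 and 26.9 CPM in floxed libraries, against 38.2, 45.2 and 32.0 CPM in controls, again without overlap (adjusted p = 0.230, edgeR). Traf1 had 0.469, 0.192 and 0.732 CPM in floxed libraries, against 0.652, 1.84 and 1.22 CPM in controls, which overlapped (adjusted p = 0.246, edgeR). Nlrp3 had 45.8, 39.9 and 73.5 CPM in floxed libraries, against 9.73, 8.83 and 33.9 CPM in controls, and its groups did not overlap (adjusted p = 0.389, edgeR).

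The groups of the VavCre Arid2 set did not overlap for 5 genes that were higher in floxed cells, Nfkb1, Rela, Nlrp3, Birc3 and Cflar, and for 2 that were lower, Icam1 and Sod2. Over all genes 17.9% were higher and 18.2% lower without overlap. Rela averaged 122 ± 4.34 CPM in floxed and 103 ± 5.003 CPM in control cells, and Birc3 69.4 ± 12.6 and 48.9 ± 6.78 CPM (SD, n = 3 each). Of the 7 tested cytokines and chemokines, 4 had fold changes below 0 without passing, with log2 fold changes of -0.38 (-1.37 to 0.60) for Il1a, -2.15 (-4.43 to 0.13) for Il1b, -1.89 (-5.27 to 1.49) for Cxcl2 and -1.81 (-4.76 to 1.14) for Ccl2. The further pathway lists had 0 calls among 22 receptors and adaptors, 15 kinases, 12 inhibitors, 29 targets and 10 inflammasome genes. Among the markers, 1 of 13 for granulocytes and 1 of 7 for B cells fell. Granulocyte markers summed to 2354 to 11700 CPM in floxed libraries, against 10850 to 18180 CPM in controls, and their part in these values was not tested. Dendritic cell markers summed to 226 to 1127 CPM in floxed libraries, against 89.6 to 124 CPM in controls, but 0 of 12 passed and Flt3 made up most of the sum, at a mean of 639 CPM in floxed and 22.9 CPM in control cells. Of the 12, 8 had fold changes above 0 and 4 below, Itgax, Cd74 and H2-Ab1 among the latter, with a median of 0.23 on the log2 scale.

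**Figure D3:**
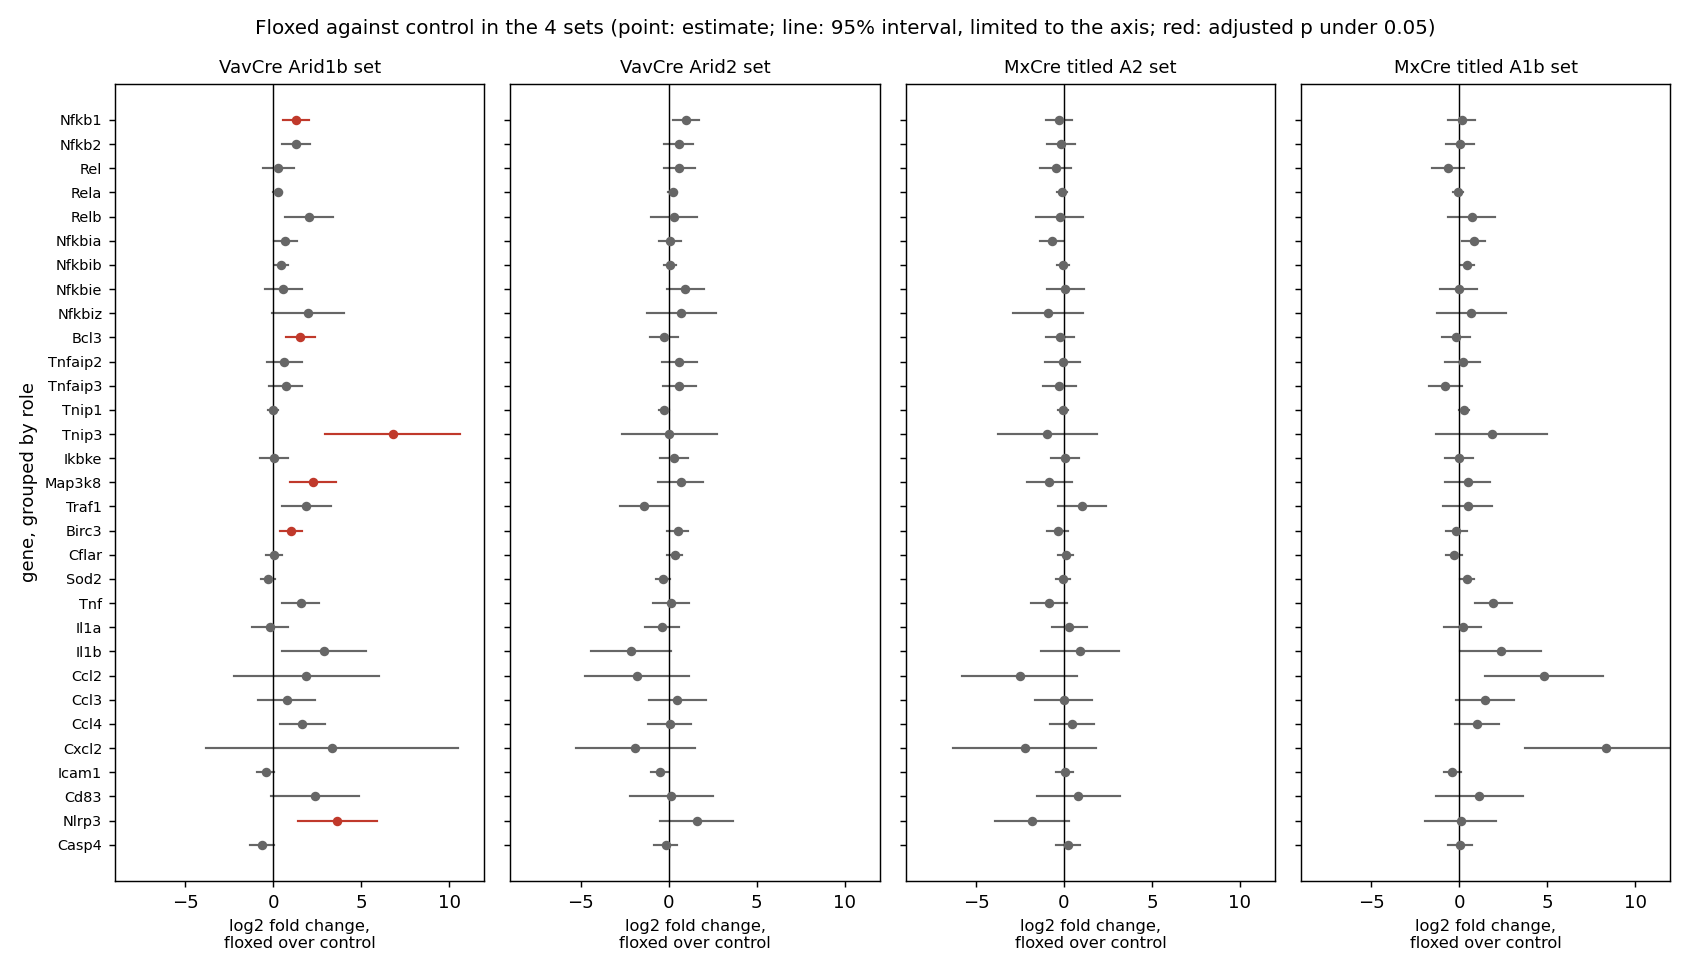
Log2 fold change of floxed over control cells in each of the 4 sets for the 31 tested genes, grouped by role; points are edgeR estimates, lines 95% intervals limited to the axis, and red marks an adjusted p under 0.05. The 6 red genes are all in the VavCre Arid1b panel.

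In the MxCre set titled A2, 0 of the 31 genes passed, and 0.0284% of all genes did. The fold change was below 0 for 21 of 31, with a median of -0.11 on the log2 scale, against 0.02 over all genes. Of the 31, Nfkbia alone had an unadjusted p under 0.05, as 1489 of all 14099 tested genes did, and DESeq2 called 0 of the 31. Nfkbia had 47.2, 64.7 and 89.8 CPM in floxed libraries, against 132, 123 and 70.3 CPM in controls (log2 fold change -0.69 ± 0.31 SE, adjusted p = 0.430, edgeR). Nlrp3 had 1.71, 8.66 and 34.4 CPM in floxed libraries, against 80.0, 50.1 and 25.3 CPM in controls (adjusted p = 0.554, edgeR). Both overlapped. Tnf and Ccl2 were lower in every floxed library than in any control, where 7.78% of all genes were lower without overlap. Tnf had 4.17, 6.48 and 4.30 CPM in floxed libraries, against 12.6, 6.69 and 7.60 CPM in controls, and Ccl2 had 0.100, 0.110 and 0.139 CPM, against 1.25, 0.231 and 0.585 CPM. Floxed library 3 of this set held the highest level of the 24 for 6 of the 31 genes, among them Traf1 (6.03 CPM), Cd83 (5.96 CPM) and Casp4 (33.9 CPM), while library 1 of the same group was lowest of the 24 for 3. Granulocyte markers summed to 15350 to 21650 CPM in floxed libraries, against 7082 to 9852 CPM in controls. Fold changes were above 0 for 13 of 13 granulocyte (median log2 0.84), 8 of 8 erythroid (5.30) and 9 of 9 T and NK markers (1.77). They were below 0 for 18 of 19 immediate-early genes (-0.83) and 10 of 13 monocyte and macrophage markers (-1.115). None on these lists passed, and their part in the values of the 31 genes was not tested. All 3 floxed libraries and 0 controls were Y-positive, so Y status and floxed state cannot be told apart in this set either.

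In the MxCre set titled A1b, 0 of the 31 genes passed, and 0.00709% of all genes did. The fold change was above 0 for 23 of 31, with a median of 0.27 on the log2 scale, against 0.01 over all genes. At an unadjusted p under 0.05 there were 7 of the 31, all higher in floxed cells, namely Tnf, Cxcl2, Ccl2, Nfkbib, Nfkbia, Sod2 and Il1b. Of all 14099 tested genes, 2450 were under the same limit in either direction. DESeq2 called 3, Ccl2, Cxcl2 and Tnf, and the share of all genes that it called in this set is not given here. Tnf had 4.99, 14.7 and 26.6 CPM in floxed libraries, against 2.56, 4.29 and 5.19 CPM in controls (log2 fold change 1.94 ± 0.51 SE, adjusted p = 0.111, edgeR). Cxcl2 had 0.0649, 1.74 and 45.0 CPM in floxed libraries, against 0, 0.111 and 0 CPM in controls, with 547 and 2 reads, a ratio of 328 with a 95% counting interval of 90.2 to 2711 (adjusted p = 0.112, edgeR). Cxcl2 recruits neutrophils. Floxed library 3 was highest in both genes and floxed library 1 lay within the range of the controls.

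Floxed library 3 held a large share of the reads of several inducible genes. It had 80.4% of the 654 Cxcl2 reads, 149 of the 320 Ccl2 reads (46.6%) and 91 of the 142 reads of Ptgs2, the inducible cyclooxygenase. Ccl3 was at 201.1 CPM there and at most 35.9 CPM in the other 23 libraries, and within its own group the other floxed libraries had 10.2 and 21.0 CPM, against 35.9, 29.1 and 18.2 CPM in controls. Ccl2, the monocyte chemoattractant, had 0.0649, 1.74 and 12.7 CPM in floxed libraries, against 0.0775, 0.334 and 0.0649 CPM in controls. Ptgs2 had 0.130, 0.0868 and 7.78 CPM in floxed libraries, against 0, 0.0557 and 0.130 CPM in controls. Nfkbiz at 56.3 CPM and Nfkbia at 174.9 CPM were also at their highest of 24, above 40.1 and 133.1 CPM elsewhere, as were Tnf, Ccl4 (15.6 CPM) and Il1b (9.83 CPM). No subunit was at its highest there. Nfkb2 was at 33.5 CPM and Relb at 10.9 CPM, against medians of 43.1 and 7.01 CPM in the other libraries.

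Immediate-early genes, which respond to stress and handling of cells as well as to growth signals, summed to 7379 CPM in this library and to 336 to 1259 CPM in the other 23; their part in the chemokine levels was not tested. Monocyte and macrophage markers summed to 3188 CPM in it, within the 720 to 5325 CPM of the others, and granulocyte markers to 9324 CPM, within 1600 to 30720 CPM. Without this library, the log2 fold changes in the set were 4.23 (adjusted p = 0.233) for Cxcl2, 2.38 (0.409) for Ccl2, 1.29 (0.183) for Tnf and 0.54 (0.374) for Nfkbia, and those of Ccl3 and Nfkbiz turned to -0.83 and -0.41 (edgeR). Without floxed library 1 instead, 5 genes passed, Ccl2, Cxcl2, Nfkbia, Nfkbib and Tnf. How many of all genes passed in that run is not given here. Tnip1 was the only one of the 31 whose floxed libraries, at 120, 102 and 121 CPM, all lay above the controls, at 90.3, 100 and 94.4 CPM, where 6.55% of all genes did so.

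**Figure D4:**
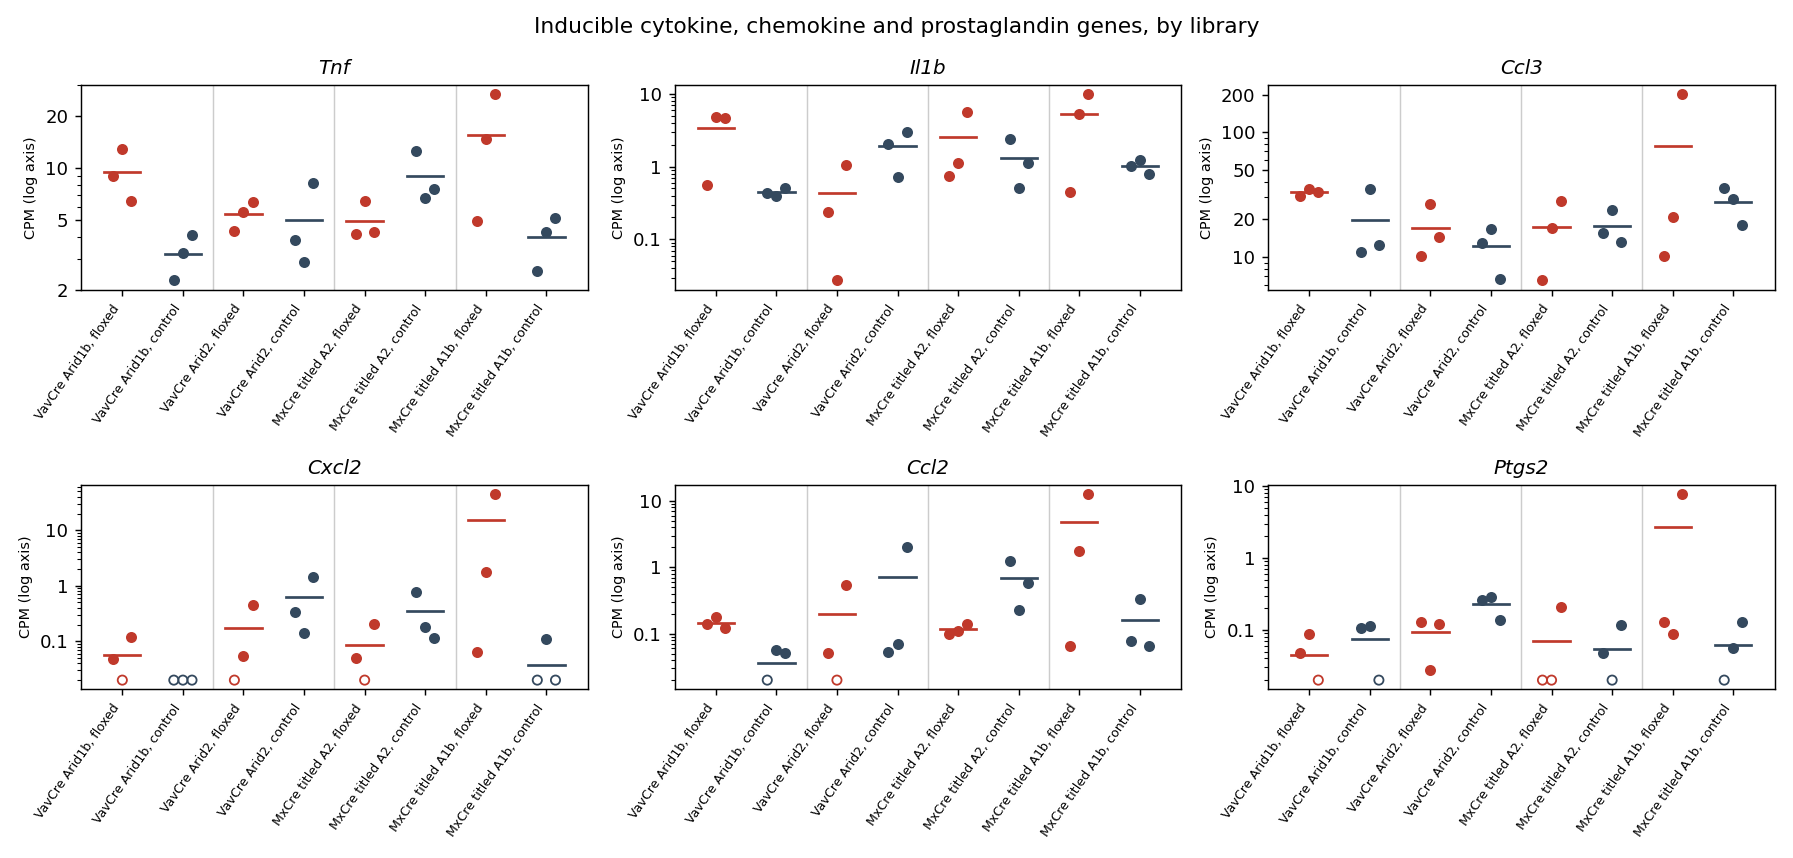
CPM by library (log axis) of 6 inducible secreted or enzyme genes in all 8 groups, floxed in red left of control in dark blue, with lines at the group means and open circles for libraries with 0 reads. In every panel the highest point is floxed library 3 of the MxCre set titled A1b, at 26.6 CPM for Tnf, 9.83 for Il1b, 201.1 for Ccl3, 45.0 for Cxcl2, 12.7 for Ccl2 and 7.78 for Ptgs2.

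MxCre controls were set against VavCre controls because only MxCre recipients had received pIpC. None of the 31 genes passed and 0.00709% of all genes did. At the same time 4 of the 31 had an unadjusted p under 0.05 (Map3k8, Nlrp3, Birc3 and Ikbke), as did 1636 of all 14099 tested genes. DESeq2 called 0 of the 31. The fold change was above 0 for 26 of the 31, with a median of 0.49 on the log2 scale, against 0.00 over all genes. Map3k8 had a lowest, median and highest level of 4.15, 8.06 and 18.2 CPM in the 6 MxCre controls, against 2.32, 3.61 and 7.98 CPM in the 6 VavCre controls (adjusted p = 0.384, edgeR). Nlrp3 had 18.2, 48.5 and 80.0 CPM in MxCre controls, against 2.13, 9.28 and 33.9 CPM in VavCre controls (log2 fold change 2.06, 95% interval 0.57 to 3.55, adjusted p = 0.384, edgeR). Both overlapped between the groups, as did every other gene of the 31, where 0.454% of all genes did not. Fold changes were also above 0 for 12 of 12 dendritic cell markers (median log2 1.88), 11 of 13 monocyte and macrophage markers (0.72) and 18 of 19 immediate-early genes (0.50), none of which passed, and their part was not tested. The pIpC given, the Cre strain and the set cannot be told apart here, and the VavCre controls also enter the VavCre comparisons above.

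The differences between sets were tested directly. Between the VavCre Arid1b and VavCre Arid2 sets, 0 of the 31 genes differed in their floxed effect, as 0.0142% of all genes did. At an unadjusted p under 0.05 were 4 of the 31 and 1389 of all 14099 tested genes. DESeq2 called 2 of the 31, and its share over all genes is not given here. The smallest p-values were those of Traf1, with a log2 difference of 3.27 (1.31 to 5.23, adjusted p = 0.196), and Bcl3, with 1.78 (0.63 to 2.94, adjusted p = 0.234, edgeR). Between the MxCre sets, titled A2 minus titled A1b, 0 of 31 differed, as 0.192% of all genes did. At an unadjusted p under 0.05 were 5 of the 31 and 2481 of all 14099 tested genes. DESeq2 called 4 of the 31, and its share over all genes is again not given. Tnf had a log2 difference of -2.78 (-4.27 to -1.29, adjusted p = 0.0814, edgeR) and Cxcl2 one of -10.58 (-16.63 to -4.53, adjusted p = 0.0960, edgeR). Egr1, an immediate-early gene, was called in that difference, at -10.52 ± 2.02 (SE, adjusted p = 0.0392, edgeR).

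The mean floxed effect of the VavCre sets minus that of the MxCre sets was positive and passed for 3 of the 31 genes, where 4.19% of all genes passed in that direction and 4.68% in the other. Birc3 differed by 1.04 ± 0.29 (SE, adjusted p = 0.0378, edgeR), Nlrp3 by 3.49 ± 1.00 (adjusted p = 0.0388) and Nfkb1 by 1.21 ± 0.36 (adjusted p = 0.0422) on the log2 scale. In each the 2 VavCre effects were positive: 1.03 and 0.51 for Birc3, 3.63 and 1.602 for Nlrp3, and 1.29 and 0.98 for Nfkb1. The MxCre effects, titled A2 then A1b, were -0.37 and -0.17 for Birc3, -1.80 and 0.07 for Nlrp3, and -0.29 and 0.13 for Nfkb1. Among other pathway genes, with log2 differences in parentheses, Malt1 (1.02), Il1r1 (4.25) and Ripk1 (0.62) of the receptors and adaptors differed in the same direction and Il1rap (-0.84) in the opposite one. Also higher in the VavCre effect were Ikbkb (1.06), Rnf31 (0.44) and Map3k14 (1.59) of the kinases and ubiquitin ligases, Tnip2 (0.83) of the inhibitors, Sele (2.06) of the targets and Naip5 (1.31) of the inflammasome genes. In the other direction were Otud7b (-1.0003), Il1rn (-2.94) and 5 targets, of which Ier3 (-2.24), Bcl2a1b (-3.83), Gadd45b (-1.99) and Marcksl1 (-1.26) had the smallest p. Bcl2a1b has near-identical copies, so its counts are uncertain. By library, Nfkb1 had 212, 220 and 383 CPM in floxed libraries of the MxCre set titled A2, against 329, 337 and 327 CPM in controls, and 194, 485 and 468 CPM in that titled A1b, against 429, 193 and 428 CPM. Birc3 had 38.1, 40.4 and 80.0 CPM in floxed libraries of the set titled A2, against 101, 59.9 and 43.6 CPM in controls, and 42.5, 48.2 and 57.7 CPM in that titled A1b, against 55.4, 50.7 and 60.7 CPM. All overlapped. Markers moved with this difference: 3 of 13 for monocytes and macrophages passed as higher (median log2 difference 1.35), 1 of 12 for dendritic cells did, with all 12 above 0 (median 2.58), and 2 of 13 for granulocytes passed as lower (median -3.15), and their part was not tested. The 3 differences were lost with the term for Y-positive libraries, and the number that passed ranged between 0 and 11 when single libraries were left out, 11 being without floxed library 3 of the MxCre set titled A2. It was 12 without the 3 libraries set aside. How many of all genes passed in the runs with libraries left out is not given here.

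The genes too low for a test were Il6 with 10 reads, Il10 with 31 and Ptgs2 with 142 over all 24 libraries. Il6 and Il10, which encode a pro-inflammatory and an anti-inflammatory cytokine, did not exceed 0.0868 and 0.256 CPM in any library. Apart from the library described above, Ptgs2 did not exceed 0.284 CPM. Il6 and Il10 differences were not detectable at this depth. For Ptgs2 the MxCre set titled A1b had 94 reads in floxed and 3 in control libraries, a ratio of 37.5 with a 95% counting interval of 12.4 to 185.2, which rests on that library.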

How the data were processed

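Gene expression was measured by poly(A) RNA sequencing with a directional kit, per the labels' protocols, in 24 libraries of 8 groups. The values are raw read counts per gene, as deposited by the authors. Reads were aligned with STAR to mm10, per the submitters' processing notes, with versions, counter, annotation and strand setting not given in the sources used here. If strand was ignored, overlapping and antisense genes share reads.

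The counts were tested with edgeR 4.0.16 (R 4.3.3): TMM scaling, a filter on low counts (minimum 10, total 15) that kept 14099 of 24046 genes, 1 mean per group over all 24 libraries (16 residual degrees of freedom), robust quasi-likelihood tests, and Benjamini-Hochberg adjustment over all tested genes at 0.05. Standard errors are the log2 fold change over the square root of F, and counting intervals and read floors cover counting error only. The test was also run on counts simulated from its own fitted spread, without libraries that stand apart. That run cannot show how the test behaves where such libraries occur. Alternatives were DESeq2 1.42.0, limma 3.58.1 voom with sample weights, RLE scaling, no filter, the set's own libraries, a replicate block, a Y term and left-out libraries. The labels do not say whether same-numbered libraries are pairs. Their deviations had correlations between -0.263 and 0.289, and those of the VavCre Arid2 set were 0.0654, 0.038 and 0.257. Differently numbered libraries had correlations between -0.337 and 0.323. The main test has no block.

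The 34 genes, the other lists and the alternatives were chosen with earlier results of these data known. Library values are given for genes that passed, for the 2 with the smallest p where none did, and for those whose highest library was over 10 times the median. Of the other lists, called genes are named, up to 4 per direction, and 1 is not reported here.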

Additional observations from a re-analysis of the deposited data

Results flagged for a closer look

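Of 62 sets of 6 control libraries examined, 31 genes in each Cre strain, 4 held a library far from the others, where chance gives about 1 in 20, or 3.1. Nfkb1 was at 192.9 CPM in control 2 of the MxCre set titled A1b and at 327.3 to 429.1 CPM in the other MxCre controls. Il1a was at 1.158 CPM in MxCre A2 control 1, against 0.6202 to 0.7839 CPM in the other MxCre controls. The same library had 0.7718 CPM of Cxcl2, and the others had 0 to 0.1844 CPM. Ccl2 was at 2.003 CPM in control 3 of the VavCre Arid2 set and at 0 to 0.0709 CPM in the other VavCre controls.

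The mean floxed effect of the VavCre sets minus that of the MxCre sets passed the edgeR test of the difference for 3 genes, at 1.215 for Nfkb1, 3.486 for Nlrp3 and 1.035 for Birc3 on the log2 scale.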

How the results depend on the processing

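In the VavCre Arid1b set, 6 of the 31 genes passed. The number was 13 with DESeq2, 17 with limma voom, 4 without a filter and 5 with the set's own libraries. It was 0 with the replicate block, 0 with the Y term, 3 without the 3 libraries set aside and 0 to 6 when single libraries were left out. No call reversed in any alternative run. Over all genes the 926 calls became 1815 with DESeq2, 4189 with voom, 1 with the replicate block and 101 with the Y term. The numbers of all genes called in the remaining runs of this set are not given here. The numbers of 0 genes in the other sets became 11 (voom) and 1 (own libraries) in VavCre Arid2 and 1 (voom) in MxCre A2. They became 3 (DESeq2) and 0 to 5 (single libraries left out) in MxCre A1b and 8 (voom) between controls. For the differences they became 2 (DESeq2) and 6 (voom) between VavCre sets, and 4 (DESeq2) and 0 to 4 (single libraries) between MxCre sets. The 3 genes of the VavCre against MxCre difference became 5 (DESeq2), 16 (voom), 2 (no filter), 0 (replicate block), 0 (Y term), 12 and 14 (without 3 and 4 libraries) and 0 to 11 (single libraries). The causes were not tested. RLE scaling left both counts of 6 and 3 as they were. Whether the replicate numbers pair the libraries is not known, and what the loss of calls with the replicate block means was not tested. Within-group spread was over 1 on the log2 scale for Nlrp3, Nfkbiz, Cxcl2, Il1b and Ccl3, whose differences were therefore imprecise with 3 libraries a group.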
